A study of Mus musculus with 8 samples.

Results

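The response to sciatic nerve axotomy that mice with and without neuronal myosin II genes have in common was measured in dorsal root ganglia, the clusters beside the spinal cord that hold the cell bodies of sensory neurons. All 8 RNA-seq libraries of the study were used, 4 from axotomized and 4 from sham-operated mice, and each arm held 2 libraries of each genotype. The change with injury was estimated over both genotypes at once, with genotype as an additive term, for every gene that reached 1 FPKM (fragments scaled to transcript length and library size) in at least 2 libraries. That rule kept 12884 of the 21878 genes in the table and used no difference between arms. A gene low in 1 arm could still pass it through the libraries of the other arm alone.

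All mice had the C57BL/6 background and carried floxed alleles of Myh9 and Myh10, the heavy chain genes of myosin IIA and IIB, motor proteins that pull on actin outside muscle. The mice called WT carried these alleles only, and the mice called dKO also carried Advillin-Cre, a recombinase under the control of a gene of sensory neurons, a promoter not aimed at the glia, vessels and blood cells of the ganglion. Ganglia L4 and L5 were taken on day 3 from mice whose sciatic nerve had been cut (SNI in the sample names) or that had a sham operation. Nothing in the labels says that the libraries came from separate animals, or how many animals each held, so the p-values rest on the spread among libraries, and that spread may be technical only.

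Cutting the peripheral branch of a sensory neuron starts a program in its cell body that is known for stress-induced transcription factors, neuropeptides and growth-associated proteins, while genes for ion channels, receptors and synaptic release decline. The non-neuronal cells of the ganglion respond as well: satellite glia that wrap each cell body react, and resident and incoming macrophages increase. In RNA from whole ganglia, fewer cells of a type and less RNA per cell cannot be told apart.

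The libraries summed to 278310 to 339920 FPKM, and replicate libraries correlated at 0.984 to 0.989 (Pearson's r across genes). The sums were 323601.5 ± 16621 FPKM in SNI and 289910.5 ± 13195 in sham (SD, n = 4 each, exact two-sided permutation p = 0.0571). The SNI libraries held 12319.75 ± 168 genes at 1 FPKM or more and the sham libraries 11883.75 ± 173 (SD, n = 4 each; exact two-sided permutation p = 0.0286, the smallest that 4 against 4 can give). Of the targeted genes, Myh9 read 27.2 and 31.6 FPKM in WT sham, 10.9 and 12.1 in dKO sham, 30.8 and 29.7 in WT SNI and 24.6 and 24.4 in dKO SNI, low in dKO sham only. Myh10 read 18.1 and 23.5 FPKM in WT sham, 12.2 and 14.4 in dKO sham, 13.8 and 10.4 in WT SNI and 5.31 and 4.12 in dKO SNI. Avil, whose promoter drives the recombinase, encodes advillin, an actin-binding protein. Its levels were 172 and 180.1 FPKM in WT sham, 75.3 and 80 in dKO sham, 143 and 112 in WT SNI and 44.1 and 34.5 in dKO SNI. In WT sham 2 the 15 skeletal muscle genes summed to 999.8 FPKM, against 51.5 to 99.6 in the other sham libraries and 66.1 to 93.9 in the SNI libraries. Y-linked genes were present in WT sham and dKO SNI and near 0 in the other groups (Ddx3y 8.05 and 8.12 FPKM in WT sham, 0 and 0.0109 in dKO sham, 0 and 0 in WT SNI and 13.6 and 13.9 in dKO SNI), so each arm held 2 libraries of either kind, while the difference of the injury effect between genotypes and the presence of Y-linked RNA cannot be told apart. Sensory neuron genes such as Prph (299 to 699 FPKM) were present in every library. Of the preset spinal cord markers, Mog, Olig2 and Chat stayed at or below 0.121, 0.117 and 0.0706 FPKM, whereas Aldh1l1 read 2.34 to 6.16 FPKM.

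Axotomy changed the level of a large share of the genes. At an adjusted p under 0.05, 3625 genes were higher in SNI (28.1% of those tested) and 3080 were lower (23.9%). All 4 SNI libraries lay above all 4 sham libraries for 2243 genes (17.4%) and below them for 2233 (17.3%). The counts given below for gene lists are to be read beside these shares. Large changes went mostly upward: 94 genes rose by at least 2 on the log2(FPKM + 1) scale (0.73%) and 7 fell by as much (0.0543%). At a bound of 1 the numbers were 745 genes higher (5.78%) and 460 lower (3.57%). The scale understates changes of genes near or below 1 FPKM. Genes with a mean under 2 FPKM were called higher in 36.46% and lower in 13.75% of 2131 cases, whereas genes between 10 and 50 FPKM were called higher in 22.77% and lower in 30.79% of 3826. The pattern was not graded over all levels, since genes over 50 FPKM were called higher in 33.69% and lower in 25.25% of 1113. With every library scaled to the same FPKM total, an alternative chosen after seeing the data, 2592 genes were higher and 4147 lower, so that the share of higher genes went from 54.1% to 38.5%.

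Every one of the 6705 called genes (52% of those tested) moved in the same direction in WT and in dKO. That is a property of the additive fit, whose error term includes the difference between genotypes, and it carries no further information; over all genes tested, 82.2% had the same sign. In the model with 1 mean per group, which shares its error over all 8 libraries, 23% of the genes tested passed the threshold in WT and 48.4% in dKO. Of the called genes, 2560 passed in both (38.2%), 304 in WT only, 3016 in dKO only and 825 in neither. The size of the change was less shared than its direction. Among the 745 genes that rose by at least 1, the change was larger in dKO for 534 (71.7%). Among the 460 that fell by at least 1 it was larger in dKO for 448 (97.4%). Gene lists described below differed in this. The change was more positive in dKO for 26 of 31 macrophage genes and 21 of 21 neutrophil genes. It was so for only 3 of 18 secreted factors, 4 of 32 growth-associated genes and 9 of 27 injury transcription factors. The difference between genotypes passed the threshold for 7 of all tested genes and for 2 of the called ones, and 1863 genes (14.5%) had an unadjusted p under 0.05 for it. For 4739 of the called genes (70.7%) the 95% interval of that difference lay within 1 on the log2 scale, but only for 385 of the 1205 genes that changed by at least 1 (32%). The means of the 2 changes come from different libraries and their error term is shared. The plot of both changes gene by gene shows called genes in the upper right and lower left quadrants, with the falls lying below the diagonal.

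**Figure D1:**
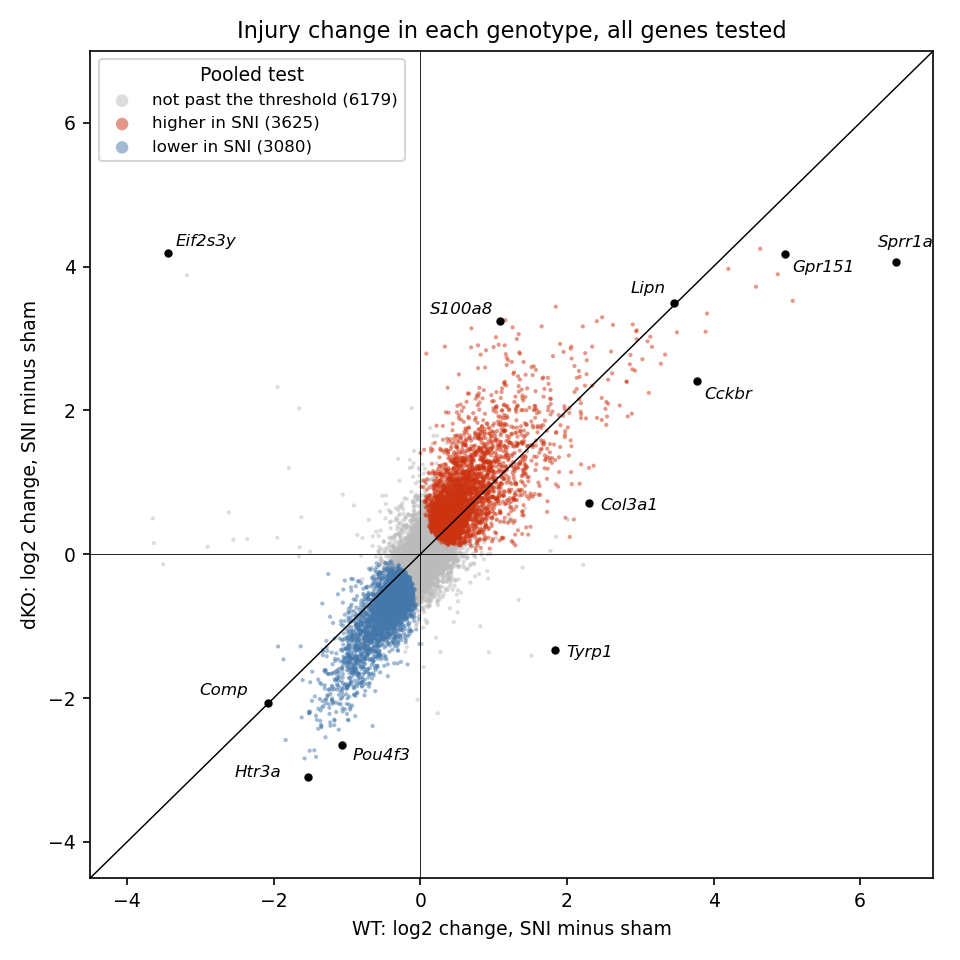
Log2 change (SNI minus sham) of each of the 12884 genes tested in WT (x axis) and in dKO (y axis), coloured by the call over both genotypes; the diagonal marks equal changes. The 3625 called rises and 3080 called falls lie in the quadrants of equal sign, Lipn and Comp lie on the diagonal, and Eif2s3y and Tyrp1, which were not called in the additive fit, have opposite signs in the 2 genotypes.

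The largest rise was that of Sprr1a, which encodes a small proline-rich protein first known from skin and promotes axon outgrowth. Its level was 3.34 and 21.9 FPKM in WT sham, 51.2 and 20.7 in dKO sham, 1074 and 744 in WT SNI and 689 and 461 in dKO SNI, a change of 5.28 ± 0.60, adjusted p = 1.52e-04. No SNI library came near the sham libraries, although the sham levels themselves ranged widely. Gpr151 encodes an orphan receptor coupled to G proteins. It read 0.599 and 2.19 FPKM in WT sham, 3.74 and 1.85 in dKO sham, 71 and 69.7 in WT SNI and 68 and 62.4 in dKO SNI and changed by 4.57 ± 0.25, adjusted p = 2.97e-06. Atf3 encodes the stress-induced transcription factor most used as a mark of injured neurons. Its levels were 2.71 and 7.26 FPKM in WT sham, 10 and 9.07 in dKO sham, 178 and 147 in WT SNI and 163 and 148 in dKO SNI and changed by 4.38 ± 0.26, adjusted p = 4.59e-06. Both genes had SNI libraries within a narrow band and sham libraries far below it. Others among the 15 largest non-overlapping rises were Wfdc3 (0.112 to 0.784 FPKM in sham and 20.1 to 27 in SNI), Ecel1, an endopeptidase of the neuronal secretory pathway (0.268 to 2.34 FPKM in sham and 22.5 to 23.5 in SNI), and Lipn, a lipase (0.0176 to 0.0897 FPKM in sham and 9.54 to 12.4 in SNI). Wfdc3 and Lipn passed the filter through SNI libraries alone, so the filter set their direction. Cckbr, the cholecystokinin B receptor, rose from 0.359 to 1.39 to 10.3 to 21.5 FPKM, and 3 of the 15 are genes that macrophages are known to express: Cbr2, Fcrls and F13a1, with changes of 3.29 ± 0.21, 3.08 ± 0.17 and 3.05 ± 0.17.

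Most of the injury-induced peptides and other secreted factors that could be tested rose. Of 29 genes on this list 18 reached the level needed for a test, and 17 of them were higher and 1, Bdnf, was lower, a call lost without WT sham 2 or dKO SNI 1; the median change was 2.05, against 0.04 over all genes tested. Nts encodes the precursor of neurotensin. It read 4.64 and 6.35 FPKM in WT sham, 9.45 and 12.6 in dKO sham, 148 and 171 in WT SNI and 179 and 283 in dKO SNI and changed by 4.44 ± 0.17, adjusted p = 6.33e-07. Npy encodes neuropeptide Y. Its levels were 8.21 and 2.84 FPKM in WT sham, 13.4 and 8.27 in dKO sham, 245 and 164 in WT SNI and 152 and 115 in dKO SNI and changed by 4.30 ± 0.36, adjusted p = 3.42e-05. Gal encodes the precursor of galanin. It read 12.6 and 33.6 FPKM in WT sham, 45.5 and 25.7 in dKO sham, 513 and 523 in WT SNI and 532 and 403 in dKO SNI and changed by 4.15 ± 0.31, adjusted p = 1.72e-05. All 4 SNI libraries stood clear of the sham libraries for the 3 peptides, with dKO SNI 2 the lowest of the 4 for Npy and Gal and the highest for Nts. Crh, corticotropin-releasing hormone, rose from 0.152 to 1.14 to 10.1 to 13.5 FPKM, and its relative Ucn, urocortin, from 0 to 2.19 to 11.3 to 23.4 FPKM with both 0 values in sham. Csf1, the growth factor that makes macrophages and microglia divide, rose from 3.36 to 4.42 to 18.3 to 33.1 FPKM (2.23 ± 0.17, adjusted p = 1.74e-05), and the fibroblast growth factor Fgf3 from 0.0211 to 0.48 to 8.15 to 11.5. Il24, a cytokine of the interleukin 10 family, was listed at 0 in 3 sham libraries and at 0.0601 FPKM in the other, and at 2.07 to 3.56 FPKM in SNI. Fgf3 and Il24 passed the filter through SNI libraries alone. Their direction was thus set by the filter and adds nothing to the count of rises. This holds in large part for Ucn too, whose only sham library at 1 FPKM or more was dKO sham 1. Other members with low sham levels may have passed likewise. Vip, Cck, Lif, Fgf21, Gdf15, Gdnf and 5 others stayed below the level needed for a test.

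**Figure D2:**
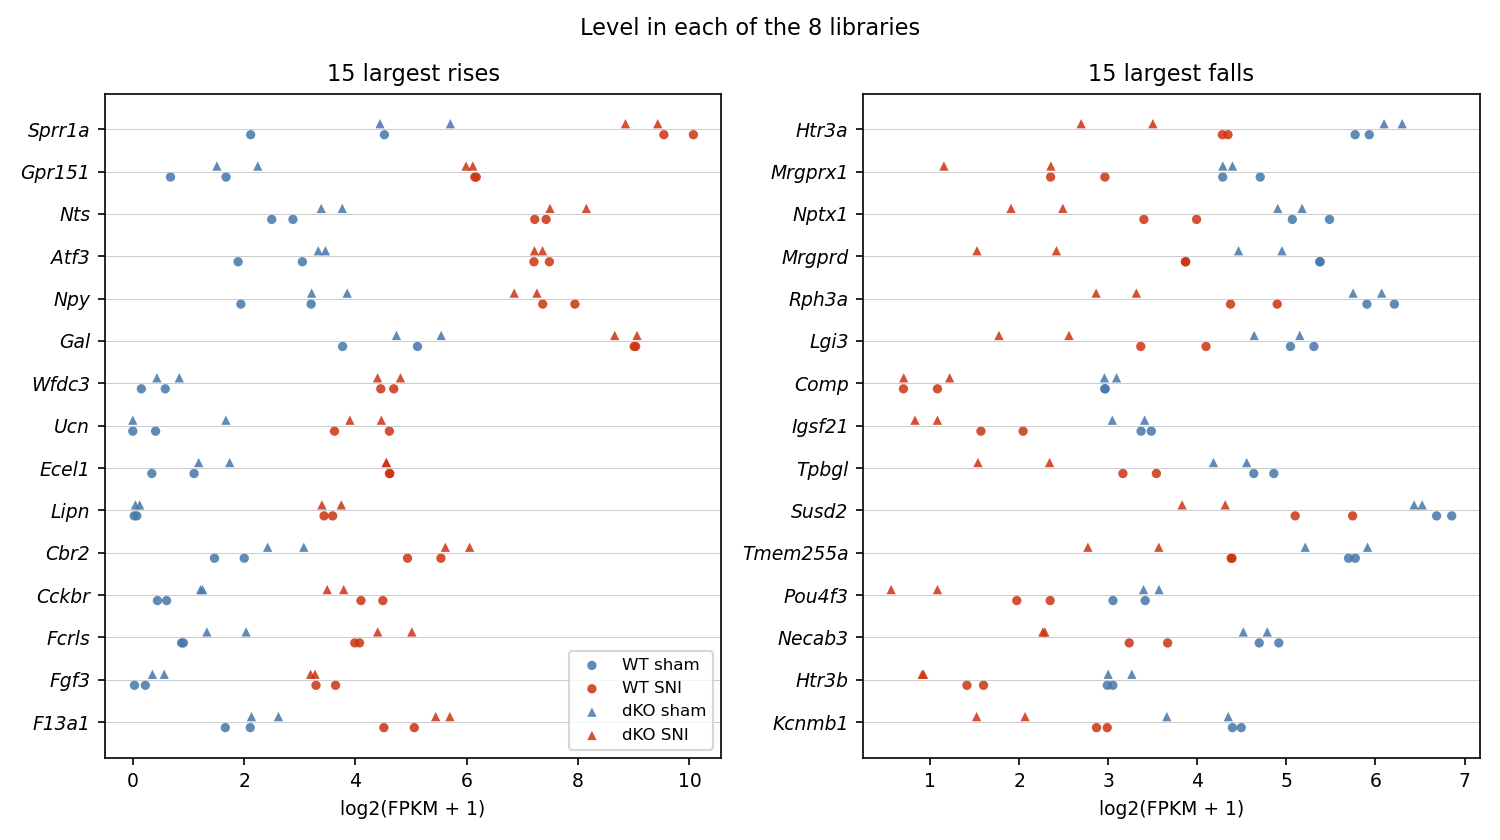
Level in each of the 8 libraries, as log2(FPKM + 1), of the 15 largest rises and the 15 largest falls among called genes whose arms do not overlap; circles are WT, triangles dKO, blue sham and red SNI. For every gene drawn all red points lie on one side of all blue points, as the choice of genes requires, and among the falls the dKO SNI libraries lie lowest for most genes.

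ATF3 and JUN bind DNA as part of dimers known to recognise AP-1 letters, and ATF and CREB dimers recognise the cAMP response element (CRE), so the 250 bases before the start of each gene were searched on both strands for TGACTCA or TGAGTCA (AP-1; each is the reverse complement of the other) and for TGACGTCA (CRE, its own reverse complement, which contains neither AP-1 form). Sequences are from RefSeq for build GRCm38.p6, in which 9885 of the genes tested had a promoter by symbol. AP-1 letters were found in 5.16% of all 27025 genes with a promoter and in 4.05% of the 9885. Of the genes called higher 5.82% of 2749 held them, of those that rose by at least 1 7.28% of 536, and of those that rose by at least 2 8 of 72 (11.1%; 94 genes in all). Of the genes called lower 3.68% of 2336 held them, and of those that fell by at least 1 3.25% of 339. CRE letters were in 3.06% of the 9885, in 1 of the 72 and in 3.83% of the 339. A match of letters is a description of the window and not evidence of binding. Among the 15 largest rises 14 had a promoter and 3 of these held AP-1 letters; they are shown here with the CRE of Ucn, motifs in capitals, because they are the windows of the strongest rises in which the searched letters occur. The AP-1 letters begin 146 and 116 bases before the start in Sprr1a, 207 in Nts and 148 in Lipn, and the CRE 44 bases before the start of Ucn. The windows are chr3:92485882-92486131 on the minus strand for Sprr1a, chr10:102490419-102490668 on the minus strand for Nts, chr19:34067108-34067357 on the plus strand for Lipn and chr5:31138896-31139145 on the minus strand for Ucn.
Sprr1a: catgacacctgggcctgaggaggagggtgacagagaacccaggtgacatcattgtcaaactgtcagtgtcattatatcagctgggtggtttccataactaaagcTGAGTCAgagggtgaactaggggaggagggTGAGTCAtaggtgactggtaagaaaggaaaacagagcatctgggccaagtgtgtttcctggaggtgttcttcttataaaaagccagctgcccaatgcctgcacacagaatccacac
Nts: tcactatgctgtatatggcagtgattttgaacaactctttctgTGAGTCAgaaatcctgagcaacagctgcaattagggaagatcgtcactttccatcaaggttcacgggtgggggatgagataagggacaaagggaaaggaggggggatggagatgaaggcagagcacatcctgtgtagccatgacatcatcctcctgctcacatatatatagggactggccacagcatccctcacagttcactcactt
Lipn: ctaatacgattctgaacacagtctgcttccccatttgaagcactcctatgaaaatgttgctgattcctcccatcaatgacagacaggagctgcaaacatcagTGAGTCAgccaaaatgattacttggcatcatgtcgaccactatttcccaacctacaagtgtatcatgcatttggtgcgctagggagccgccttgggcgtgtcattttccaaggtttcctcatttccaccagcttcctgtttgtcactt
Ucn: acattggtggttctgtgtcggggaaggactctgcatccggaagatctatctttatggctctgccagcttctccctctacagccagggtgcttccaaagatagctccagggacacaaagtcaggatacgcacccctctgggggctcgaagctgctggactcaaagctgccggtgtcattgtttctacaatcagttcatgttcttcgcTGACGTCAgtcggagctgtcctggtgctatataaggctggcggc

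Of 27 transcription factors known from axon injury, 16 were higher and 2, Sox4 and Stat3, were lower (median 0.49), and with equal FPKM totals 4 were lower. Besides Atf3, Sox11 encodes a SoxC factor needed for axon growth. Its levels were 1.9 and 2.35 FPKM in WT sham, 2.71 and 3.28 in dKO sham, 22.2 and 19.7 in WT SNI and 16.3 and 24.4 in dKO SNI and changed by 2.61 ± 0.15, adjusted p = 2.97e-06. Klf6 encodes a zinc finger factor. It read 11.2 and 12.5 FPKM in WT sham, 14.9 and 15 in dKO sham, 34.8 and 30.9 in WT SNI and 30.9 and 30.5 in dKO SNI and changed by 1.20 ± 0.11, adjusted p = 4.80e-05. Fosl1, a partner of JUN, went from 0.0236 to 0.242 to 1.46 to 1.81 FPKM. The arms stayed apart for all 3. Fosl1 passed the filter through SNI libraries alone, so the filter set its direction. Jun encodes the core AP-1 subunit. Its levels were 30 and 43.6 FPKM in WT sham, 37.7 and 43.4 in dKO sham, 87.5 and 59.7 in WT SNI and 48.7 and 43.2 in dKO SNI; its arms overlapped, and its change of 0.58 ± 0.20, adjusted p = 0.034 missed the threshold when any one library other than dKO sham 2 and dKO SNI 2 was left out, with no filter on low values and with equal FPKM totals. Stat3, which relays cytokine signals, read 54.7 and 61.7 FPKM in WT sham, 44.9 and 46.1 in dKO sham, 51.9 and 40.8 in WT SNI and 31.6 and 24.8 in dKO SNI, so its transcript was lower in SNI (-0.51 ± 0.13, adjusted p = 0.00928) with arms that overlapped.

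Growth cone and growth-associated genes were higher for 19 of 32 members and lower for 2, Dpysl2 and Dpysl3, which encode collapsin response mediator proteins (median 0.80). Gap43 encodes a membrane-bound protein of growth cones. It read 109.8 and 131 FPKM in WT sham, 152 and 143 in dKO sham, 498 and 487 in WT SNI and 402 and 365 in dKO SNI and changed by 1.70 ± 0.15, adjusted p = 4.54e-05. Stmn4 encodes a stathmin that binds tubulin. Its levels were 7.42 and 8.28 FPKM in WT sham, 13.4 and 13.5 in dKO sham, 83.9 and 86.1 in WT SNI and 83.7 and 95.8 in dKO SNI and changed by 2.96 ± 0.14, adjusted p = 1.39e-06. Flrt3 encodes an adhesion and guidance protein. It read 4.43 and 4.83 FPKM in WT sham, 6.02 and 3.72 in dKO sham, 43.5 and 46.5 in WT SNI and 36.1 and 37.3 in dKO SNI and changed by 2.87 ± 0.13, adjusted p = 1.39e-06. The dKO SNI libraries lay below the WT SNI libraries for Gap43 and Flrt3 and on either side of them for Stmn4. Tnfrsf12a, the receptor of TWEAK, rose from 3.48 to 7.87 to 26.3 to 33.5 FPKM and Lmo7, an actin-associated LIM protein, from 0.633 to 2.06 to 12.4 to 14.9. The summed level of the list was 7115 to 7480 FPKM in sham and 10846 to 13260 in SNI.

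Receptors and channel subunits reported to change with nerve injury were mixed: 14 of 29 were higher and 9 lower, with a median of 0.26 (0.11 with equal FPKM totals). Cacna2d1 encodes the calcium channel subunit that gabapentin binds. Its levels were 19.6 and 22.1 FPKM in WT sham, 26.7 and 17.1 in dKO sham, 58.1 and 57.7 in WT SNI and 50.9 and 53 in dKO SNI and changed by 1.34 ± 0.13, adjusted p = 8.30e-05. Sdc1, a heparan sulfate proteoglycan, rose from 9.12 to 13.7 to 42.3 to 62 FPKM, Plaur, the urokinase receptor, from 6.81 to 8.48 to 28.1 to 32.8, and Itga7, the laminin receptor subunit, from 18.4 to 22.7 to 76.5 to 92.5. Il6st, the shared receptor subunit of the interleukin 6 family, was at 39.2 to 54.1 FPKM in sham and 32.6 to 50.6 in SNI (-0.21 ± 0.11, adjusted p = 0.143) and missed the threshold, but was called lower with equal FPKM totals (-0.37, adjusted p = 0.0371). The axon guidance list moved mostly the other way, with 20 of 45 members lower and 7 higher (median -0.22). Sema6a, a transmembrane semaphorin, rose from 1.24 to 1.73 to 10.1 to 17.3 FPKM and Sema3c, a secreted one, from 3.34 to 4.98 to 8.5 to 12.3. The semaphorin receptors Plxnc1 and Plxna2, both plexins, fell by 1.21 and 1.05 (20.7 to 33.6 to 6.88 to 16.4 and 8.2 to 11.4 to 2.81 to 5.95 FPKM).

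Genes of excitability fell together. Of 11 voltage-gated sodium channel genes, 10 were lower and none higher; the list had a median of -1.14, with -0.76 in WT and -1.31 in dKO. Scn10a, the Nav1.8 channel of nociceptors, read 126 and 134 FPKM in WT sham, 111 and 95.8 in dKO sham, 47.5 and 44.6 in WT SNI and 29.3 and 20.2 in dKO SNI and changed by -1.76 ± 0.15, adjusted p = 3.88e-05. Scn11a, Nav1.9, read 88 and 85.8 FPKM in WT sham, 68.1 and 53.6 in dKO sham, 30.8 and 28.6 in WT SNI and 16.1 and 9.59 in dKO SNI and changed by -1.85 ± 0.18, adjusted p = 7.63e-05. Scn9a, Nav1.7, read 37.8 and 36.7 FPKM in WT sham, 37.4 and 27 in dKO sham, 24.2 and 27.9 in WT SNI and 18.7 and 18.3 in dKO SNI; its arms overlapped and it changed by -0.63 ± 0.12, adjusted p = 0.00224. Scn10a and Scn11a, which are found mainly in nociceptors, had more negative changes than Scn9a, and Scn8a and Scn1a, channels of myelinated axons, lay between (-1.14 ± 0.15 and -1.52 ± 0.14); these differences between genes were not tested. The one member that did not pass was Scn2a1, with a mean of 1.81 FPKM in sham and 2.28 in SNI.

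Potassium channel genes were lower for 42 of 53 members and higher for 2, and the arms of 38 did not overlap in the downward direction. Kcnd1, Kv4.1, read 50.6 and 53.8 FPKM in WT sham, 38.3 and 42.4 in dKO sham, 23.1 and 21.1 in WT SNI and 11.8 and 8.81 in dKO SNI and changed by -1.54 ± 0.15, adjusted p = 7.49e-05. Kcna2, the Kv1.2 subunit near nodes of Ranvier, fell from 19.8 to 23.5 to 6.79 to 11.7 FPKM. Kcnmb1, an auxiliary subunit of the BK channel, was among the 15 largest falls, from 11.6 to 21.5 to 1.88 to 6.94 FPKM. The 2 members that rose, named after their values were seen, were Kcnk16, a 2-pore channel (mean 0.56 FPKM in sham and 3.83 in SNI), and Kcnmb4, another BK subunit (5.08 and 8.86). Of 14 voltage-gated calcium channel genes 13 were lower and none higher (median -0.69), led by the auxiliary subunits Cacna2d2 (-1.19 ± 0.12) and Cacng5 (-0.98 ± 0.13) and including Cacna1h, the Cav3.2 T-type channel (-0.73 ± 0.10). Cacna1b, the Cav2.2 pore, was the one that did not pass (-0.14 ± 0.11). Cacna2d1, a calcium channel subunit that rose, was counted with the injury-induced receptors and is not among the 14. That none of the 14 was higher therefore depends on how the lists were drawn up.

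Sensory transduction channels were lower for 19 of 30 members and higher for 2, Piezo1 and P2rx4, both named after their values were seen. The number higher was 1 without any one WT library or with equal totals. The largest of the 15 named falls belonged to this list. Htr3a encodes a subunit of the serotonin-gated channel. It read 53.6 and 60 FPKM in WT sham, 77.8 and 67.4 in dKO sham, 19.3 and 18.4 in WT SNI and 10.3 and 5.48 in dKO SNI and changed by -2.32 ± 0.29, adjusted p = 2.69e-04. Its partner Htr3b fell from 6.95 to 8.61 to 0.881 to 2.03 FPKM. Trpv1 encodes the capsaicin and heat channel. Its levels were 39 and 41.2 FPKM in WT sham, 51.2 and 38.4 in dKO sham, 25.4 and 23.2 in WT SNI and 17.6 and 10.1 in dKO SNI and changed by -1.18 ± 0.22, adjusted p = 0.00198. Piezo2 encodes the touch channel. It read 30.7 and 33.1 FPKM in WT sham, 26.1 and 24.3 in dKO sham, 15.8 and 14.5 in WT SNI and 10.9 and 10.3 in dKO SNI and changed by -1.10 ± 0.09, adjusted p = 2.73e-05. The 4 SNI libraries were below the 4 sham libraries for all of these, with dKO SNI lowest. P2rx3, the ATP-gated channel of nociceptors, did not follow: it was at 51.1 to 56.1 FPKM in sham and 50.7 to 83.7 in SNI (0.27 ± 0.12, adjusted p = 0.0814). P2rx3 was called higher in the model with 1 mean per group (adjusted p = 0.0262) and without dKO SNI 2 (0.35, adjusted p = 0.0378).

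Receptors and peptides that mark subtypes of sensory neurons were lower for 33 of 40 members and higher for none, with a median of -0.94. Mrgprd encodes the receptor of non-peptidergic nociceptors. Its levels were 40.6 and 40.5 FPKM in WT sham, 29.9 and 21.1 in dKO sham, 13.6 and 13.6 in WT SNI and 4.35 and 1.88 in dKO SNI and changed by -2.12 ± 0.27, adjusted p = 2.50e-04. Mrgprx1 encodes an itch receptor. It read 25.1 and 18.5 FPKM in WT sham, 18.5 and 20 in dKO sham, 4.11 and 6.8 in WT SNI and 4.12 and 1.23 in dKO SNI and changed by -2.21 ± 0.27, adjusted p = 2.03e-04. Tac1 encodes the precursor of substance P. Its levels were 189 and 163 FPKM in WT sham, 176 and 203 in dKO sham, 63 and 82.7 in WT SNI and 75.8 and 71.9 in dKO SNI and changed by -1.31 ± 0.12, adjusted p = 5.46e-05. Mrgprd and Mrgprx1 had their lowest values in dKO SNI 2, while Tac1 had like levels in all 4 SNI libraries. Calca, the precursor of calcitonin gene-related peptide, changed less (-0.49 ± 0.12), and Sstr2, a somatostatin receptor, went from 2.56 to 4.32 to 0.306 to 0.43 FPKM. Sstr2 passed the filter through sham libraries alone, so the filter set its direction. The factors that specify sensory neurons fell as well: 20 of 24 were lower, all 20 without overlap, and 2 were higher, Maf and Foxp2 (median -1.09). The number higher was 1 without WT sham 2, WT SNI 2 or either dKO SNI library. Isl2 read 83.4 and 79.8 FPKM in WT sham, 66.6 and 70.4 in dKO sham, 33.4 and 33.4 in WT SNI and 19.3 and 14.7 in dKO SNI and changed by -1.61 ± 0.15, adjusted p = 5.85e-05. Prdm12 is needed to form nociceptors. It read 30.4 and 33.4 FPKM in WT sham, 27.6 and 26 in dKO sham, 14.2 and 12.5 in WT SNI and 7.2 and 4.62 in dKO SNI and changed by -1.62 ± 0.18, adjusted p = 1.42e-04. Pou4f1, known as Brn3a, fell from 33.4 to 42.6 to 10.6 to 24 FPKM, and its relative Pou4f3 from 7.3 to 10.9 to 0.478 to 4.09. Runx1, which sets the non-peptidergic fate, fell from 6.22 to 11.8 to 3.1 to 6.1.

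Synaptic vesicle and release genes were lower for 35 of 41 members (median -0.99). Nptx1 encodes a secreted pentraxin of synapses. Its levels were 32.5 and 43.8 FPKM in WT sham, 28.9 and 35.2 in dKO sham, 14.9 and 9.56 in WT SNI and 4.62 and 2.76 in dKO SNI and changed by -2.21 ± 0.27, adjusted p = 2.00e-04. Cadps, a priming factor of dense core vesicles, fell from 41.3 to 54.8 to 15.7 to 30.3 FPKM, and Snap25, the SNARE protein, from 218 to 271 to 87.3 to 171. Rph3a, a vesicle-bound Rab effector, was the fifth of the 15 largest falls, from 52.8 to 73.1 to 6.28 to 28.8 FPKM. The 3 members that rose included, named after their values were seen, Syt4 (mean 98.5 FPKM in sham and 141 in SNI) and Stx1a (11.8 and 15.4), and with equal totals 1 member was higher. Neurofilaments and microtubule-associated proteins were lower for 19 of 23 members and higher for none (median -0.71). Nefl encodes the light neurofilament chain. It read 1719.9 and 2014 FPKM in WT sham, 1603 and 1778 in dKO sham, 1408 and 986 in WT SNI and 636 and 407 in dKO SNI and changed by -1.19 ± 0.25, adjusted p = 0.00373. Nefm and Nefh fell by 1.52 ± 0.29 and 1.65 ± 0.31, each by over 2 in dKO (-2.11 ± 0.32 and -2.30 ± 0.33). Pan-neuronal markers, as a measure of how much neuronal RNA the libraries held, were lower for 11 of 19 and higher for 1, Nsg1, with a median of -0.42 (WT -0.36, dKO -0.72). Rbfox3 encodes the NeuN antigen. Its levels were 14 and 16.8 FPKM in WT sham, 11.5 and 14.3 in dKO sham, 8.14 and 6.19 in WT SNI and 4.33 and 3.35 in dKO SNI and changed by -1.26 ± 0.15, adjusted p = 1.70e-04. Uchl1, an abundant neuronal ubiquitin hydrolase, was at 1398 to 1614 FPKM in sham and 834 to 1722 in SNI (-0.32 ± 0.19, adjusted p = 0.175). Uchl1 was called lower under quantile normalization (-0.90, adjusted p = 0.00463) and with equal FPKM totals (-0.48, adjusted p = 0.0495). These marker levels moved with the falls of channels, receptors and release genes, and their part in those falls was not tested.

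**Figure D3:**
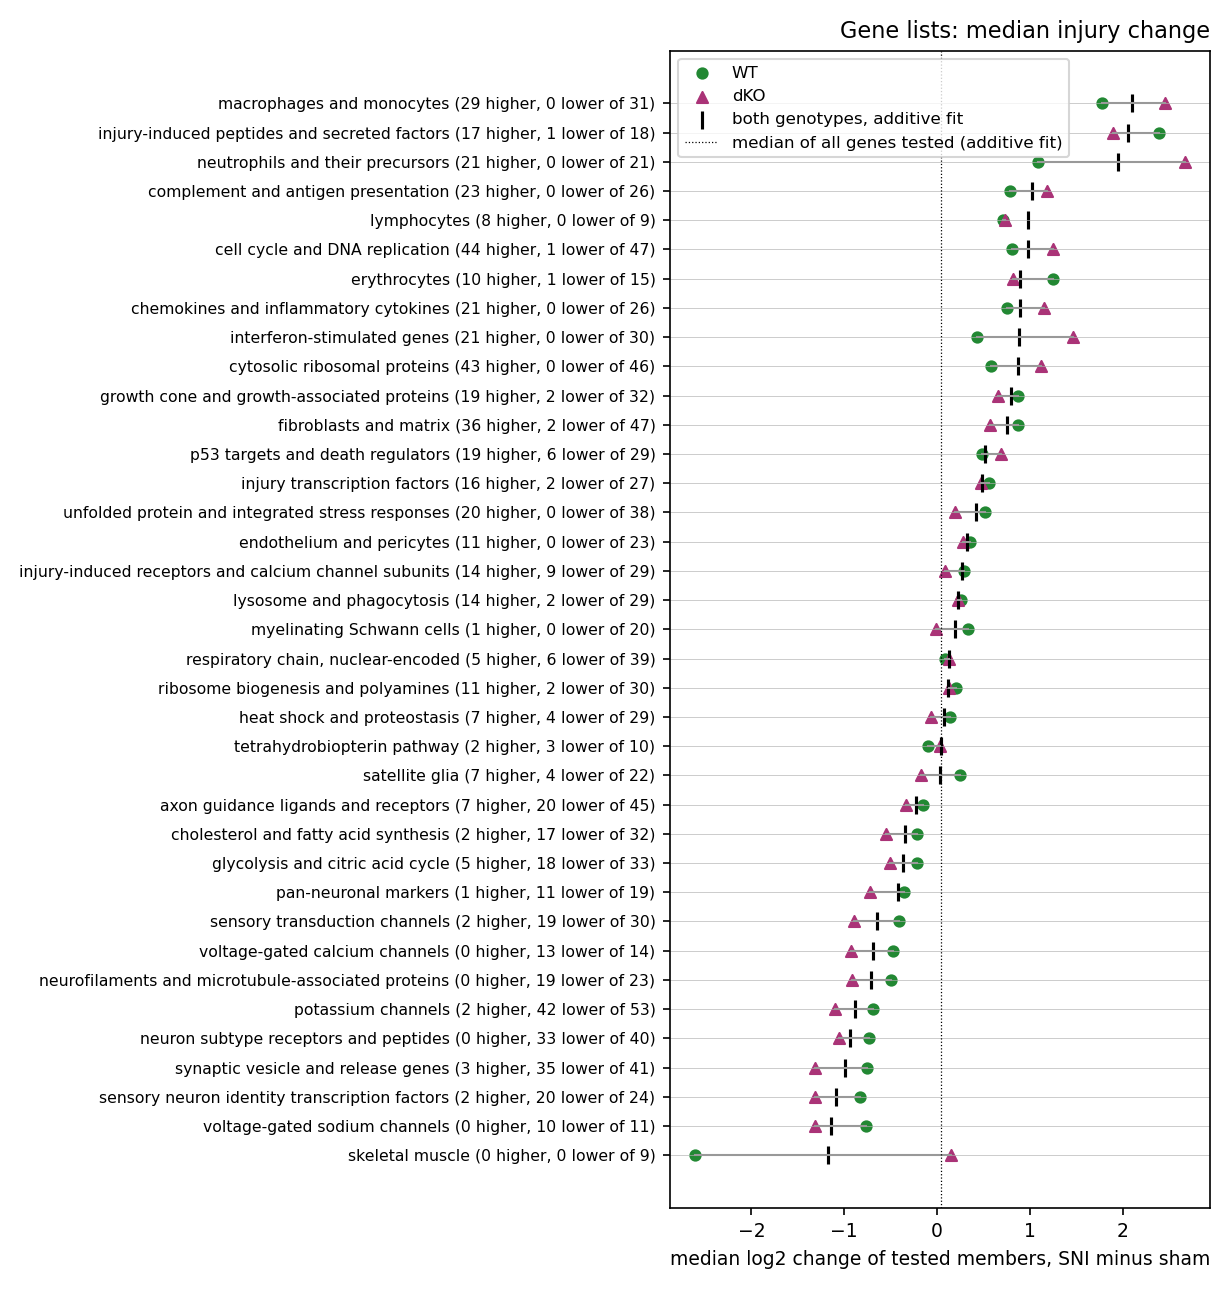
Median log2 change (SNI minus sham) of the tested members of each gene list in the fit over both genotypes (bars), in WT (circles) and in dKO (triangles), with the number of members called in brackets; the dotted line is the median of all genes tested, 0.04. Macrophage, secreted factor and neutrophil lists lie highest, sodium channels and identity factors lie lowest among neuronal lists, and skeletal muscle lies apart in WT only.

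Macrophage and monocyte genes rose without exception among those called: 29 of 31 were higher, all 29 without overlap, and the median was 2.10 (WT 1.78, dKO 2.45). Mrc1 encodes the mannose receptor of resident macrophages. It read 2.01 and 1.77 FPKM in WT sham, 3.36 and 3.33 in dKO sham, 19 and 22 in WT SNI and 27.7 and 22.2 in dKO SNI and changed by 2.73 ± 0.11, adjusted p = 7.30e-07. C1qb encodes a chain of complement C1q. Its levels were 13.8 and 10.9 FPKM in WT sham, 19 and 26.2 in dKO sham, 104 and 99 in WT SNI and 167 and 204 in dKO SNI and changed by 2.97 ± 0.13, adjusted p = 1.20e-06. Csf1r encodes the receptor for the growth factor encoded by Csf1. It read 4.14 and 2.83 FPKM in WT sham, 4.6 and 5.4 in dKO sham, 18.4 and 20.1 in WT SNI and 25.1 and 24.2 in dKO SNI and changed by 2.15 ± 0.11, adjusted p = 2.42e-06. The ranges of the 2 arms lay well apart for all 3. Aif1, known as Iba1, changed by 1.34 ± 0.27 in WT and 3.06 ± 0.27 in dKO, a difference that did not pass the adjusted threshold. The summed level of the 31 genes was 371 to 552 FPKM in sham, 1090 and 1355 in WT SNI, and 2494 and 2598 in dKO SNI. The 2 members that did not pass were Gpnmb and Ly86.

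Neutrophil genes were higher for all 21 members tested, but for 12 only were the arms separate. S100a8 encodes a calcium-binding alarmin. Its levels were 244 and 322 FPKM in WT sham, 222 and 377 in dKO sham, 411 and 859 in WT SNI and 2742 and 2760.4 in dKO SNI and changed by 2.16 ± 0.42, adjusted p = 0.00249. Elane (neutrophil elastase) and Mpo (myeloperoxidase) are made in neutrophil precursors of the bone marrow. Elane read 2.9 and 4.85 FPKM in WT sham, 9.86 and 6.21 in dKO sham, 21.8 and 27.2 in WT SNI and 78.4 and 87.1 in dKO SNI. Mpo read 3.25 and 3.85 FPKM in WT sham, 7.51 and 7.77 in dKO sham, 14.1 and 19.5 in WT SNI and 63.4 and 56.2 in dKO SNI. Both precursor genes had levels above 50 FPKM in dKO SNI alone. The summed level was 805 to 1340 FPKM in sham, 1487 and 2855 in WT SNI and 7994 and 7810 in dKO SNI. Lymphocyte genes were higher for 8 of 9 tested, among them the B cell genes Cd79a (0.48 to 3.08 to 2.4 to 5.83 FPKM, arms overlapping) and Vpreb3 of B cell precursors (0 to 1.83 to 1.05 to 6.85, overlapping), while 13 others, with Cd3e, Cd4 and Cd8a among them, stayed too low for a test. Erythrocyte genes were higher for 10 of 15 and lower for 1, and only 1 of the 15 had arms that did not overlap. The 10 became 5 without WT SNI 2 or without dKO sham 1, and 6 without dKO SNI 1. The fall was not called without WT sham 2, WT SNI 2, dKO sham 2 or dKO SNI 2. Hbb-bs, adult beta globin, read 888 and 792 FPKM in WT sham, 1367 and 3219 in dKO sham, 1213 and 3143 in WT SNI and 4547 and 1921 in dKO SNI, so its spread within the arms was as wide as the difference (0.86 ± 0.40, adjusted p = 0.0958). Hbb-bs was called higher without dKO sham 2 or without dKO SNI 2 (1.18 in both). Klf1 and Gata1, factors of red cell precursors, overlapped between arms (1.60 ± 0.30 and 0.79 ± 0.18), and Car1, carbonic anhydrase 1, did not (0.358 to 1.33 to 8.88 to 15.2 FPKM). Blood cell and precursor genes moved with the neutrophil, lymphocyte and cell cycle lists, and their part in those results was not tested.

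**Figure D4:**
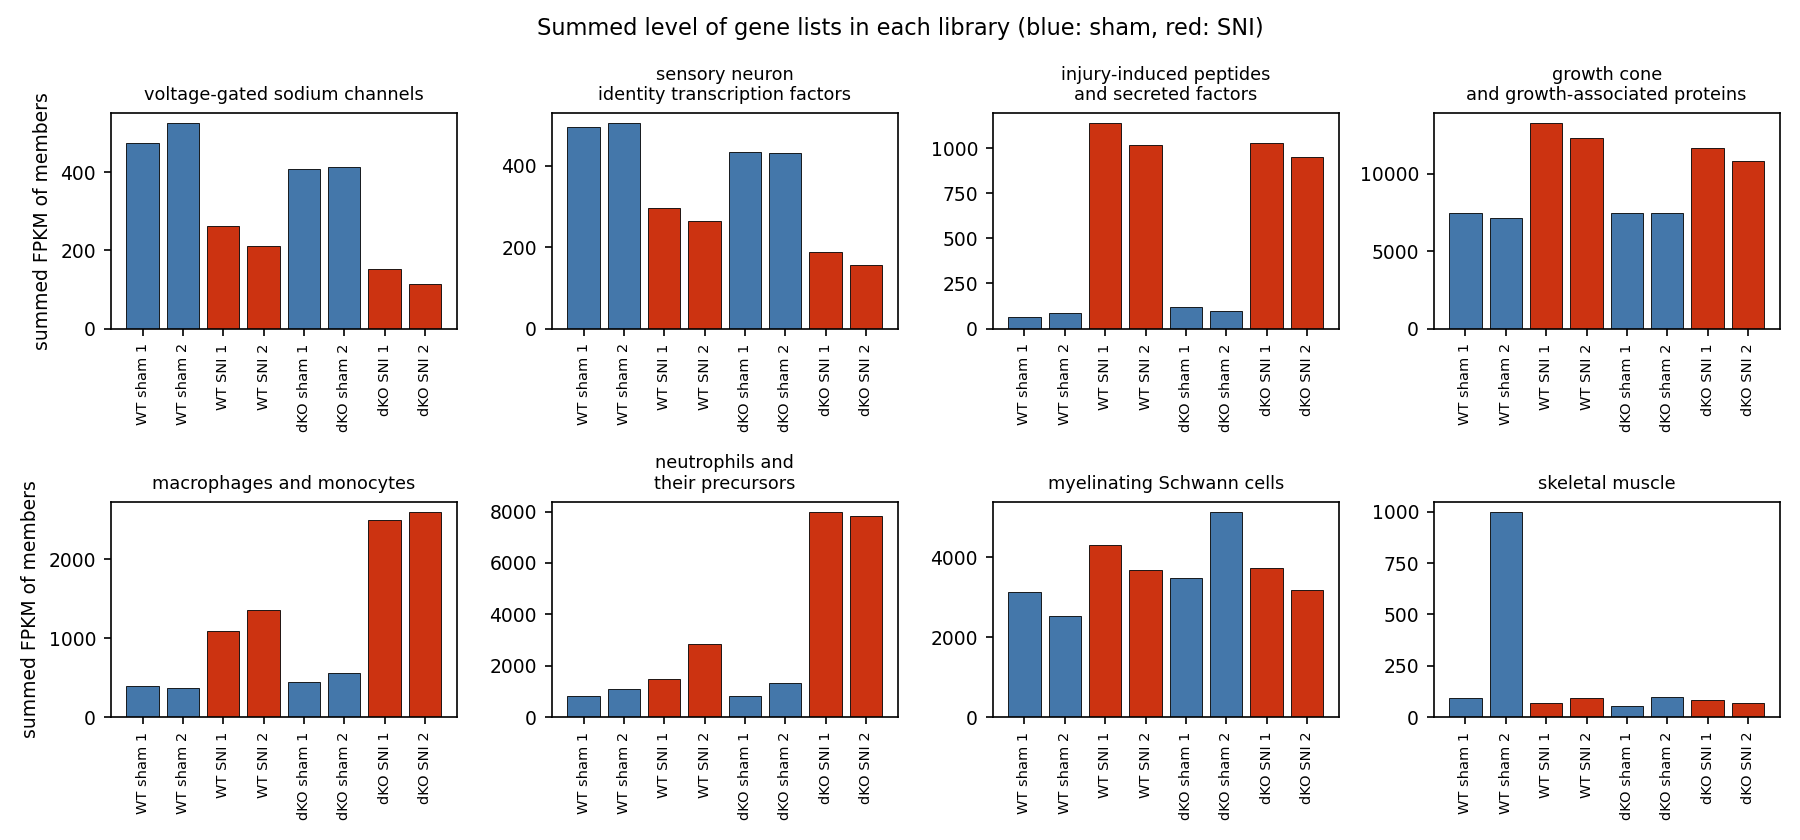
Summed FPKM of all members of 8 gene lists in each library, sham in blue and SNI in red; no error bars, since each bar is 1 library. Secreted factors reach like sums in both genotypes after SNI. Growth genes rise in both, to 13260 and 12319 FPKM in WT SNI and to lower sums, 11651 and 10846, in dKO SNI. Sodium channels and identity factors fall further in dKO SNI, macrophage and neutrophil sums are highest in dKO SNI, and the skeletal muscle sum is high in WT sham 2 alone.

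Complement and antigen presentation genes were higher for 23 of 26 members tested and chemokines and cytokines for 21 of 26, with medians of 1.03 and 0.90 and none lower in either list. Cfp encodes properdin of the alternative complement pathway. It read 1.54 and 1.95 FPKM in WT sham, 3.92 and 4.91 in dKO sham, 10.9 and 11.8 in WT SNI and 28.4 and 29.2 in dKO SNI and changed by 2.32 ± 0.11, adjusted p = 1.39e-06. C3 rose from 1.86 to 2.8 to 4.37 to 17.1 FPKM and B2m, the light chain of MHC class I, from 441 to 683 to 961 to 2433. Ccl2 encodes the main monocyte attractant. Its levels were 1.2 and 1.18 FPKM in WT sham, 2.28 and 2.41 in dKO sham, 2.86 and 3.18 in WT SNI and 7.59 and 13.6 in dKO SNI and changed by 1.31 ± 0.20, adjusted p = 7.12e-04. Ccl9 rose from 0.604 to 1.95 to 5.72 to 18.9 FPKM, whereas Cxcl10, an interferon-induced chemokine, was at 2.64 to 4.76 in sham and 2.18 to 6.22 in SNI. Interferon-stimulated genes were higher for 21 of 30 (median 0.89, WT 0.43, dKO 1.46), but only 7 had arms that did not overlap. The 21 called higher became 12 without WT sham 2 or without dKO SNI 2, and 11 without dKO sham 1 or with no filter on low values. Irf7 encodes the regulator of type I interferon genes. It read 3.09 and 2.59 FPKM in WT sham, 2.52 and 9.37 in dKO sham, 7.79 and 3.2 in WT SNI and 13 and 56.6 in dKO SNI; a single library, dKO SNI 2, was far above the rest. Its change was 1.45 ± 0.52, adjusted p = 0.0384, and the call was lost without WT sham 2, WT SNI 1, either dKO sham library or dKO SNI 2 (0.88 without dKO SNI 2).

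Cell cycle and DNA replication genes were higher for 44 of 47 members and lower for 1, E2f1 (median 0.97, WT 0.80, dKO 1.25). Prc1 encodes a microtubule bundler of the mitotic spindle. Its levels were 0.832 and 1.27 FPKM in WT sham, 2.64 and 2.64 in dKO sham, 11.3 and 13.6 in WT SNI and 15.2 and 13.3 in dKO SNI and changed by 2.39 ± 0.15, adjusted p = 5.51e-06. Top2a encodes topoisomerase 2 of dividing cells. It read 0.548 and 0.94 FPKM in WT sham, 1.66 and 2.37 in dKO sham, 2.73 and 5.57 in WT SNI and 10.1 and 9.44 in dKO SNI and changed by 1.68 ± 0.18, adjusted p = 1.14e-04. Mki67 encodes the Ki-67 antigen. Its levels were 0.726 and 1.23 FPKM in WT sham, 2.61 and 3.37 in dKO sham, 3.03 and 7.0 in WT SNI and 13.4 and 7.92 in dKO SNI and changed by 1.52 ± 0.22, adjusted p = 5.13e-04. Prc1 levels were close together in all 4 SNI libraries and all below 3 FPKM in sham. The Mki67 arms overlapped, and dKO sham lay above WT sham for each of the 3 genes.

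Fibroblast and matrix genes were higher for 36 of 47 members and lower for 2, Comp and Timp2 (median 0.75), and for 15 of the rises the arms were separate. Dcn encodes decorin. It read 199 and 128 FPKM in WT sham, 262 and 289 in dKO sham, 317 and 518 in WT SNI and 685 and 941 in dKO SNI and changed by 1.44 ± 0.20, adjusted p = 4.29e-04. Col3a1 encodes a fibrillar collagen chain. Its levels were 13.5 and 11.5 FPKM in WT sham, 43 and 55.8 in dKO sham, 57.2 and 75.3 in WT SNI and 77.7 and 84.9 in dKO SNI; its change was 2.30 ± 0.18 in WT and 0.72 ± 0.18 in dKO. Eln, elastin, behaved likewise, with 0.542 and 0.765 FPKM in WT sham, 3.59 and 5.63 in dKO sham, 5.59 and 5.98 in WT SNI and 5.48 and 5.55 in dKO SNI. For both genes dKO sham lay above WT sham and the SNI levels of the 2 genotypes were closer together than the sham levels. The differences of their changes between genotypes did not pass the adjusted threshold. Comp, cartilage oligomeric matrix protein, went the other way and was very even, with 6.79 and 6.81 FPKM in WT sham, 6.77 and 7.54 in dKO sham, 0.627 and 1.12 in WT SNI and 0.631 and 1.33 in dKO SNI. Comp changed by -2.07 ± 0.13, adjusted p = 7.30e-06. Endothelial and pericyte genes were higher for 11 of 23 (median 0.32), and for 7 without WT SNI 2 or without dKO sham 1. Pecam1 rose from 3.4 to 5.6 to 5.21 to 8.31 FPKM with overlap, and Cldn5, the tight junction protein of vessels and perineurium, did not pass (11.3 to 16 and 11.7 to 21.3 FPKM) except without WT sham 1 (0.45, adjusted p = 0.0221).

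Glial lists had small medians over both genotypes, but the medians of each genotype differed. Satellite glial genes were higher for 7 of 22 and lower for 4, near the shares over all genes tested (28.1% and 23.9%). They had a median of 0.03 (WT 0.25, dKO -0.17). Their summed level was 2767 and 2495 FPKM in WT sham and 3334 and 3139 in WT SNI. In dKO it was 3939 and 3693 FPKM in sham and 3138 and 2649 in SNI. For the difference between genotypes, 10 of the 22 had an unadjusted limma p under 0.05, against 14.5% of all genes tested. Satellite glia were not alone in this. The same count was 20 of 21 for neutrophil genes and 21 of 41 for synaptic release genes, but 8 of 31 for macrophage genes and 0 of 29 for lysosome genes. With equal FPKM totals 4 satellite glial genes were higher and the median was -0.12. Without WT SNI 2, dKO sham 1, dKO sham 2 or dKO SNI 1, 2 were lower. Adh1 rose from 3.04 to 4.64 to 9.33 to 11.4 FPKM (1.24 ± 0.10, adjusted p = 2.57e-05) and Cdh19, a cadherin of glia, from 6.38 to 8.99 to 10.3 to 22.1. Gfap encodes the intermediate filament of reactive glia. It read 0.284 and 0.382 FPKM in WT sham, 1.86 and 0.389 in dKO sham, 1.52 and 1.46 in WT SNI and 2.35 and 2.33 in dKO SNI and changed by 0.82 ± 0.19, adjusted p = 0.00584, with dKO sham 1 above the WT SNI libraries. Aldoc, aldolase C, fell from 41.5 to 50.6 to 13.7 to 34.6 FPKM, and the potassium channel Kcnj10 changed by -0.59 ± 0.19, adjusted p = 0.0243, a call that was lost without WT SNI 2 or any one dKO library. Fabp7 rose by 0.45 ± 0.13, a call lost under quantile normalization, with equal totals and without WT SNI 2. Of 20 genes of myelinating Schwann cells, 1, Ncmap, was higher and none was lower (median 0.19, WT 0.33, dKO -0.01). Without dKO sham 2, which had the highest summed level (5137 FPKM, others 2525 to 4295), 5 were higher. Without WT SNI 2 the call of Ncmap was lost.

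Stress pathways divided. Genes of the unfolded protein and integrated stress responses were higher for 20 of 38 and lower for none (median 0.42). Ddit3, known as CHOP, read 4.37 and 4.42 FPKM in WT sham, 4.98 and 5.74 in dKO sham, 9.21 and 7.49 in WT SNI and 11.7 and 13.8 in dKO SNI and changed by 0.95 ± 0.11, adjusted p = 1.84e-04. Eif4ebp1, a translational repressor, rose from 3.54 to 6.89 to 14 to 23.8 FPKM, and Chac1, an enzyme that degrades glutathione, from 2.42 to 3.16 to 8.0 to 14.9. Hspa5, the chaperone BiP of the endoplasmic reticulum, was at 78.6 to 132 FPKM in sham and 111 to 116 in SNI (0.25 ± 0.14, adjusted p = 0.165) and did not pass, except without dKO sham 2 (0.38, adjusted p = 0.0267). Heat shock and proteostasis genes had a median of 0.07 (-0.08 with equal totals), with 7 of 29 higher and 4 lower (8 lower with equal totals). The 7 and the 4 were smaller shares than the 28.1% higher and 23.9% lower over all genes tested. The rises included the proteasome subunits Psma5 (0.57 ± 0.12) and Psma7 (0.54 ± 0.11), and the falls the chaperones Hsph1 (-1.01 ± 0.19) and Hsp90ab1 (-0.82 ± 0.19). Of 29 p53 targets and death regulators, 19 were higher and 6 lower (median 0.52). Gadd45a is a growth arrest gene. It read 18.9 and 18.3 FPKM in WT sham, 20.8 and 22.4 in dKO sham, 139.9 and 93.9 in WT SNI and 102 and 88.7 in dKO SNI and changed by 2.33 ± 0.15, adjusted p = 7.30e-06. Cdkn1a encodes the p21 inhibitor of the cell cycle. Its levels were 45 and 39.9 FPKM in WT sham, 43.6 and 45 in dKO sham, 164 and 136 in WT SNI and 122 and 95.6 in dKO SNI and changed by 1.53 ± 0.14, adjusted p = 5.69e-05. Arms were far apart for both. Bbc3 and Bax, which promote cell death, changed by 0.53 ± 0.16 and 0.40 ± 0.12, calls that were lost without any one dKO library for Bbc3 and without WT sham 2, dKO sham 2 or dKO SNI 1 for Bax, and for both under quantile normalization.

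Cytosolic ribosomal protein genes were higher for 43 of 46 and lower for none, with a median of 0.87 (WT 0.58, dKO 1.12), 0.72 with equal totals and 0.63 under quantile normalization. The arms of 12 did not overlap. Rps3 read 121 and 94 FPKM in WT sham, 121 and 156 in dKO sham, 160.0 and 229 in WT SNI and 355 and 406 in dKO SNI and changed by 1.15 ± 0.18, adjusted p = 8.40e-04. Processed copies of these genes could share reads in the authors' quantification, so the levels of single members are uncertain. Genes of ribosome biogenesis and polyamine synthesis were higher for 11 of 30 and lower for 2, Nop2 and Nolc1; the 11 became 5 or 6 when WT sham 1, WT sham 2, WT SNI 2 or dKO SNI 1 was left out, and with equal totals 5 were higher and 6 lower. Odc1 encodes the rate-limiting enzyme of polyamine synthesis. It read 21.4 and 23.7 FPKM in WT sham, 36 and 20.4 in dKO sham, 73.9 and 68.2 in WT SNI and 44.4 and 68 in dKO SNI. Odc1 changed by 1.61 ± 0.26 in WT and 1.00 ± 0.26 in dKO and was called over both (adjusted p = 8.14e-04).

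Metabolic lists differed in direction. Glycolysis and citric acid cycle genes were lower for 18 of 33 and higher for 5 (median -0.37), with Pfkm, muscle-type phosphofructokinase, at 42.4 to 62.9 FPKM in sham and 12.7 to 33.8 in SNI, and the glucose transporter Slc2a1 going up (0.72 ± 0.13). Cholesterol and fatty acid synthesis genes were lower for 17 of 32, 11 without dKO sham 2, and higher for 2, Hsd17b7 and Ebp (median -0.34). Hmgcs1, an early enzyme of the pathway, was not called (-0.28 ± 0.15) except under quantile normalization and with equal totals. Nuclear-encoded respiratory chain genes were higher for 5 of 39 and lower for 6, with a median of 0.13. Both were smaller shares than over all genes tested (28.1% and 23.9%). With equal totals 3 were higher and 10 lower, with a median of -0.03. The number higher was 8 without WT SNI 1 and 3 without WT sham 2, WT SNI 2 or any one dKO library, and the number lower was 3 without dKO sham 2. Sdhb rose and Sdha fell, although both encode parts of succinate dehydrogenase (0.48 ± 0.11 and -0.58 ± 0.11). Lysosome and phagocytosis genes were higher for 14 of 29 and lower for 2, Lgmn and Psap (median 0.22). With equal totals 5 were lower and the median was 0.06, and 1 was lower without any one dKO library. Abca1 encodes a cholesterol exporter. Its levels were 7.53 and 7.7 FPKM in WT sham, 8.43 and 5.92 in dKO sham, 25.5 and 23.9 in WT SNI and 23.2 and 23 in dKO SNI and changed by 1.58 ± 0.11, adjusted p = 1.06e-05. Of 10 genes of the tetrahydrobiopterin pathway, which supplies the cofactor of nitric oxide synthases, Gch1 and Pts, its first enzymes, were higher (0.84 ± 0.19 and 0.62 ± 0.13) and Qdpr, Pcbd1 and Nos1 were lower (-1.01 ± 0.18 for Nos1). These counts lay near the shares over all genes tested.

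In terms of FPKM gained or lost, abundant transcripts led. The largest gain was that of Tmsb4x, which sequesters actin monomers, with 1355 and 1013 FPKM in WT sham, 1282 and 1477 in dKO sham, 1752 and 2591 in WT SNI and 3635 and 5160.2 in dKO SNI. Apod, apolipoprotein D, went from 333 to 766 to 1059.8 to 2752 FPKM, and S100a10, a partner of annexin A2, from 531 to 695 to 1117 to 2669. Among the 8 largest losses was that of Fxyd2, the regulatory subunit of the sodium pump (814 to 1159 to 389 to 591 FPKM). The 3625 genes called higher held 22.0 to 28.1% of all FPKM in sham, 32.6 and 37.5% in WT SNI and 46.2 and 52.3% in dKO SNI. The 3080 called lower held 27.5 to 34.2%, 23.1 and 19.4%, and 14.1 and 11.2% in the same order. The genes were chosen by their change, so the direction of these shares is given by the choice, and their sizes are a description.

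Among the genes that changed by at least 2, 8 with the smallest difference between genotypes were taken as the most even. Col5a3 encodes a collagen V chain. It read 9.48 and 9.69 FPKM in WT sham, 14.3 and 15.7 in dKO sham, 54.4 and 51.3 in WT SNI and 76.2 and 84.1 in dKO SNI, which gave changes of 2.35 ± 0.12 in WT and 2.34 ± 0.12 in dKO. Itga7 read 18.4 and 21.2 FPKM in WT sham, 18.5 and 22.7 in dKO sham, 92.5 and 76.5 in WT SNI and 83.5 and 90.2 in dKO SNI, with changes of 2.03 ± 0.16 and 2.03 ± 0.16. Akr1b8 encodes an aldo-keto reductase. Its levels were 3.99 and 3.74 FPKM in WT sham, 4.2 and 3.6 in dKO sham, 21.2 and 20.6 in WT SNI and 21.6 and 19.9 in dKO SNI, with changes of 2.17 ± 0.12 and 2.15 ± 0.12. For Itga7 and Akr1b8 the 4 SNI libraries differed from each other by little compared with the distance to sham. Col5a3 had an even change but was higher in dKO than in WT in both arms. Lipn, Comp, C1qb, Csf1r and Apol11b made up the rest of the 8. At the other end, Asprv1 encodes a retroviral-like protease. It read 1.51 and 1.38 FPKM in WT sham, 1.17 and 1.27 in dKO sham, 2.36 and 2.7 in WT SNI and 7.22 and 7.74 in dKO SNI and was one of the 2 called genes with a called difference between genotypes (0.53 ± 0.13 in WT, 1.93 ± 0.13 in dKO; adjusted p of the difference = 0.0408). Cckbr rose by 3.77 ± 0.17 in WT and 2.40 ± 0.17 in dKO, a difference that did not pass. Myh9 itself was called higher (0.54 ± 0.18) through its dKO libraries (1.03 ± 0.13, against 0.04 ± 0.13 in WT), and that call was lost without any one of the 4 dKO libraries. The additive fit also called 825 genes that neither genotype showed alone. Among them were Dock4 (-0.52 ± 0.17 and -0.46 ± 0.17), an activator of Rac, and Nck1 (0.48 ± 0.16 and 0.43 ± 0.16), an adaptor of actin signalling. Both were taken for their small p in that fit, a choice that favours even changes, so they need not stand for the 825.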

How the data were processed

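RNA from L4 and L5 dorsal root ganglia was sequenced as paired-end TruSeq libraries, per the labels' protocols. The authors deposited 1 table of FPKM values, with 21878 gene symbols and 8 columns, each matched to its sample by its description. The submitters' processing notes name HISAT2 2.0.4 (an aligner), StringTie 1.3.0 (a quantifier of transcripts), and edgeR (version not listed), together with GRCm38.p4 and mm10 as builds. Neither their roles nor their order are stated. No annotation, rule for multiply mapped reads or use of strand is given in the sources used here, so reads of a gene and of its antisense or overlapping neighbour may be mixed. FPKM divides by the library total, so very abundant transcripts lower the others. Read totals are unknown, and low values did not share a common step (a median of 6.10% of ratios at the commonest value, within 1%), so no count model was run. The table holds 25 symbols that look like dates and 2 duplicated symbols, which were not interpreted.

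Genes that reached 1 FPKM in 2 or more libraries were tested on log2(FPKM + 1) with limma 3.58.1 in R 4.3.3, with additive terms for genotype and surgery (5 residual degrees of freedom), a mean-variance trend and two-sided tests, and Benjamini-Hochberg adjustment over all 12884 genes at 0.05. Changes are given ± SE on that scale, as SNI minus sham. A model with 1 mean per group (4 residual degrees of freedom) gave the changes in each genotype and their difference. On simulated data the additive fit recovered 94 of 100 genes changed by 1 and 99 of 100 changed by 2, and called 13 of 12684 unchanged genes. The simulation held no effect of genotype, no difference of the injury effect between genotypes and no shift in library totals. Changes were added only to genes with a mean above 1 on the log2 scale. Its rates therefore need not hold for the real libraries. No 2 libraries were identical.

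The members and the 40 gene lists (1180 entries, 1173 of them found in the table) were chosen with earlier results of these data known, and list counts and medians are descriptions set beside those of all genes tested. Genes were named by rule: the 15 largest non-overlapping rises and falls, in each list preset members and the 4 smallest p-values, the 8 called genes with the smallest p and the 8 large changes with the smallest size for the difference between genotypes, the 8 largest gains and losses in FPKM, and 4 genes called in the fit over both genotypes only. Predicted genes and date-like symbols were left out of the largest changes. Some genes that the rule chose are not reported here. Alternatives were other filters, pseudocounts, scalings, models, a replicate block and leaving out each library; equal FPKM totals were added after seeing the data.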

Additional observations from a re-analysis of the deposited data

Results flagged for a closer look

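Among 144 sets of 4 values in an arm that were screened for a value standing apart from the other 3, 5 held one. Chance alone sets apart a value in about 1 of 20 such sets. Comp was 7.539 FPKM in dKO sham 2, and 6.771 to 6.815 FPKM in the other sham libraries, a small distance beside the fall to 0.627 to 1.33 FPKM in SNI. Ucn was 2.188 FPKM in dKO sham 1 and 0 to 0.328 FPKM in the other sham libraries. The growth cone and growth-associated genes summed to 7115.0 FPKM in WT sham 2 and to 7448 to 7480 FPKM in the other sham libraries. The skeletal muscle genes summed to 999.8 FPKM in WT sham 2, against 51.51 to 99.65 FPKM in the others. Gal was 402.7 FPKM in dKO SNI 2 and 513.1 to 531.9 FPKM in the other SNI libraries.

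For 7 genes the injury change differed between genotypes at an adjusted p under 0.05 in limma. For 4 Y-linked genes the change in dKO exceeded that in WT by 7.06 (Ddx3y, adjusted p = 3.81e-08), 7.628 (Eif2s3y, 3.79e-08), 4.271 (Uty, 5.77e-06) and 3.677 (Kdm5d, 2.88e-05). These genes were near 0 in WT SNI and dKO sham and present in the other groups, so for the remaining 3 genes the difference between genotypes and the presence of Y-linked RNA cannot be told apart. Asprv1 changed by 0.53 in WT and 1.93 in dKO, a difference of 1.403 (adjusted p = 0.0408). The predicted gene Gm38495 changed by 0.33 in WT and 2.89 in dKO, a difference of 2.552 (adjusted p = 0.0408). Tyrp1, an enzyme of pigment synthesis, changed by 1.84 in WT and -1.33 in dKO, a difference of -3.173 (adjusted p = 5.93e-05).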

How the results depend on the processing

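The direction of all 243 called genes chosen by the naming rule was the same under every alternative in which they could be fitted, and 0 to 8 of them lost the call in any one setting. Many of the 243 were chosen for a small p or a large change in the same libraries. Their kept direction therefore carries little further information and need not hold for other called genes. With a filter of a mean of at least 5 FPKM, which tests fewer genes, 4092 genes were called, 1924 of them higher, 1183 rose without overlap, and 3 differed between genotypes. With no filter 7000 genes were called, and with a pseudocount of 0.1 6681. Leaving out one library at a time gave 5534 to 6889 called genes, 2242 to 3530 rises without overlap (3530 without WT SNI 1, where 3 libraries face 4) and 5 to 20 genes differing between genotypes (20 without WT sham 1, 11 without WT SNI 2). Scaling to equal FPKM totals moved the median of all genes from 0.04 to -0.09 and called 11 genes for the difference between genotypes; centring gave 0.02 and quantile normalization -0.02. Replicate numbers did not pair the libraries (correlations of their deviations from -0.19 to 0.25 over 6 pairs of groups). The replicate block called 6398 genes, 3478 higher and 2920 lower, and 12 for the difference between genotypes. The causes of these shifts were not tested. Of 679 list medians under alternatives, 20 had another sign than in the fit reported. Read depth is unknown, and each group held 2 libraries.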
